A study of Mus musculus with 2 samples.

Results

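Collagens are the chains of the main structural proteins of the extracellular matrix, and 44 of the 32285 genes in the count matrix carried a name of the form Col, number, a, number. These 44 genes were taken as the collagen genes and divided into 4 types, by the assembly their chains form or, for the cartilage and basement membrane types, by the matrix they are known from. The fibrillar type held 8 genes, the basement membrane type 9 and the cartilage type 7. The remaining 20 genes, which include beaded filament, fibril-associated, network and transmembrane collagens, were grouped as other collagens.

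The measurements came from SPARC-seq, in which RNA and open chromatin are read under shared barcodes, on E18.5 C57BL/6 mouse brain. The tissue was homozygous for a Ctcf mutation, R567W, made with CRISPR/Cas9, and gave 1 RNA library and 1 accessibility library, so both spot groups compared here carry it. How many embryos or sections were used is not given in the labels, and wild-type tissue was not analysed here, so no value measures an effect of the mutation. A barcode joins a first and a second segment of 8 bases each, out of 50 possible segments, and was treated as a spot that can hold several cells, at a position that was not given.

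After filtering, all but 1 of the spots in the matrix were kept, 1992 in number, with 8711132 UMIs, a median of 4157 UMIs per spot (range 907 to 12442) and a median of 21705 accessibility fragments (5759 to 87572). All barcodes of the matrix were among the 2500 of the fragment data. The 249 spots with the largest share of Acta1 and Ttn UMIs, which encode skeletal muscle actin and titin, were called muscle-rich. They held 1077059 UMIs, and the 1743 other spots held 7634073. Median UMIs per spot were close in muscle-rich and other spots (4209 and 4155), whereas median fragments were 29899 and 21276. Ctcf was at 80.8 CPM (counts per 1000000 UMIs) in muscle-rich spots and 84.8 in other spots, which does not check a single amino acid change.

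All collagens are built from 3 chains that wind into a triple helix through repeats of glycine followed by any 2 residues. Fibrillar collagens are secreted by fibroblasts and osteoblasts and form the cables of skin, bone, tendon and meninges. Type IV chains form the sheet under endothelium and epithelium and around muscle fibres, while types II, IX, X and XI are the collagens of cartilage. In brain parenchyma, collagen is sparse and is mainly found in the vessel wall and the meninges.

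The length of the helix repeats, which the choice of genes did not use, differed among the types and within them. Translation of the longest open reading frame of each gene gave 1 unbroken run of 337 to 344 glycine triplets in Col1a1, Col1a2, Col3a1, Col5a1, Col5a2 and Col5a3. The cartilage chains Col2a1, Col11a1 and Col11a2 held runs of the same order, 338 to 339 triplets. The fibrillar chains Col24a1 and Col27a1 had shorter longest runs of 216 and 217 triplets. Basement membrane chains were interrupted, with a longest run of 40 triplets among 22 runs in Col4a1 and of 66 among 24 runs in Col4a2. Runs of at least 5 triplets covered 78.4% of Col4a1 and 73.3% of Col1a1, but only 12.3% of Col6a3 and 8.12% of Col12a1, whose chains are mostly globular domains.

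Promoter sequence was taken from RefSeq (build GRCm38.p6), as 250 bases before and 50 after each start site, for the 35 of 44 collagen genes matched there by symbol. The promoters shown are those of 2 fibrillar genes with RNA and promoter fragments near 2-fold apart between the spot groups, the window shared by the start sites of Col4a1 and Col4a2, a beaded filament gene and, for contrast, Col25a1. Capitals mark a CCAAT box, a TATA box spelled TATAAA or a GC box spelled GGGCGG, found on either strand.
Col1a2, chr6:4505368-4505667, plus strand: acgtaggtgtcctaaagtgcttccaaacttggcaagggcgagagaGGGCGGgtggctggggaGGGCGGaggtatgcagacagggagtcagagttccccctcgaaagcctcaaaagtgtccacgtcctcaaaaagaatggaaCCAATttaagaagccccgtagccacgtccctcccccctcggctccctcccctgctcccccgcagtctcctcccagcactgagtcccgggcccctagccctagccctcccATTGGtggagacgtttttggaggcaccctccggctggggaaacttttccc
Col3a1, chr1:45311288-45311587, plus strand: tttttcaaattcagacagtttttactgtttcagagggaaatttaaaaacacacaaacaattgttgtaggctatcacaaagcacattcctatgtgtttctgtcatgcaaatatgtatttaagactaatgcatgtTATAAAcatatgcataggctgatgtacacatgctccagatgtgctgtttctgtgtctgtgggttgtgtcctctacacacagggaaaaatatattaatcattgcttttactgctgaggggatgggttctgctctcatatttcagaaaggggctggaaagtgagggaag
Col4a2, chr8:11312555-11312854, plus strand: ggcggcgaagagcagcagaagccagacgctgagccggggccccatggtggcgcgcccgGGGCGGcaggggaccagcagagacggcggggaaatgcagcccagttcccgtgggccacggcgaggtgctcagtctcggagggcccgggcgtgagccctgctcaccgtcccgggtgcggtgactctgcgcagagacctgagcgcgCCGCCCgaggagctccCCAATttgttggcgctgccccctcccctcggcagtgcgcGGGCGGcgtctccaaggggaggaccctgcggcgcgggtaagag
Col6a2, chr10:76623581-76623880, minus strand: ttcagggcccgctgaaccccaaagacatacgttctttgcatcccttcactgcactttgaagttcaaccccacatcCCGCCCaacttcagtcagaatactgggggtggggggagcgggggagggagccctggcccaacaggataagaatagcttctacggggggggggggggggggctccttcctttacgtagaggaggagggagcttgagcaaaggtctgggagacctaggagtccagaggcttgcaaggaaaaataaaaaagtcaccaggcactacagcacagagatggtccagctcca
Col25a1, chr3:130180595-130180894, plus strand: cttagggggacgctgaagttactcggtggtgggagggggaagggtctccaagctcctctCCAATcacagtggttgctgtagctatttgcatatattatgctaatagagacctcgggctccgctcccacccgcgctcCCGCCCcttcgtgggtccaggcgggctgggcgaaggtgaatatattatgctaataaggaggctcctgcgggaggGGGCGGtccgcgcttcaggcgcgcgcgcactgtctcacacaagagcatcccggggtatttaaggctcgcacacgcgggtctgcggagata

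Over all 38 collagen promoter windows (3 genes had 2), GGGCGG was found in 23, or 60.5%, against 35.7% of all 32851 promoters in the table. CCAAT was found in 34.2% against 37.4%, TATAAA in 13.2% against 13.6%, and CANNTG in 52.6% against 72.3%. Col3a1, at 37.7% G and C, held a TATAAA match at position -117 from its start and no GGGCGG match, whereas the Col4a2 window, at 73.7% G and C, held 3 GGGCGG matches and no TATAAA match. A match here is a run of letters, not a binding site.

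Collagen RNA amounted to 26508 UMIs, or 3043 CPM. The fibrillar type took 51.0% of it, other collagens 19.7%, the basement membrane type 18.4% and the cartilage type 10.97%. Per kilobase of the longest transcript, Col1a1 was the highest member with 1349 UMIs, followed by Col1a2 with 530, Col4a1 with 437, Col11a1 with 260 and Col3a1 with 251. The lowest was Col10a1, the collagen of hypertrophic cartilage, with 1.60 UMIs per kilobase and 5 UMIs in all. Whether reads were tied to transcript ends is not given in the sources used here, so this order depends on the division by length.

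Over all spots, the 4 types were higher in muscle-rich spots, and the fibrillar type differed most. This did not hold among spots that share a second barcode segment, where the ratios were 0.98 for fibrillar, 0.89 for cartilage, 1.04 for basement membrane and 1.02 for other collagens. The values by type and gene that follow are over all spots, and those within second segments come after them. Fibrillar collagens were at 2893 CPM in muscle-rich spots (95% interval 2792 to 2996) and 1362 in other spots (1335 to 1388), a ratio of 2.12 (2.04 to 2.21). Cartilage collagens were at 502 and 310 CPM, a ratio of 1.62 (1.47 to 1.78). Other collagens were at 889 and 557, a ratio of 1.59 (1.48 to 1.71), and basement membrane collagens at 749 and 534, a ratio of 1.404 (1.30 to 1.51). All intervals here cover counting error only, since there was 1 library of each kind and spots are not replicates, and in spots of several cells more cells of a type and more RNA per cell cannot be told apart.

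Of the 43 collagen genes with at least 20 UMIs, 39 had a ratio above 1 and 10 were at least 2-fold higher in muscle-rich spots. Among all 15739 genes with at least 20 UMIs, 4.81% were at least 2-fold higher, 4.42% at least 2-fold lower, and the median ratio was 0.98. The median ratio was 1.52 over the 43 collagen genes, 1.94 over the 8 fibrillar genes, 1.44 over 6 cartilage genes, 1.41 over 20 other genes and 1.25 over 9 basement membrane genes. The interval excluded 1 on the upper side for 22 collagen genes and on the lower side for 0, against 1440 and 1356 of the 15739 genes. Within second segments, 1 collagen gene was at least 2-fold higher in place of 10. The filter on 20 UMIs counted both groups together, and Col10a1 alone fell below it.

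Among the fibrillar genes, type I collagen gave the bulk of the signal. Col1a1, which encodes the alpha 1 chain of type I collagen in bone and skin, was at 1776 CPM (1697 to 1858) in muscle-rich spots and 797 (777 to 818) in other spots. Its ratio was 2.23 (2.12 to 2.35). Its partner chain Col1a2 was at 597 (552 to 645) and 287 (275 to 299), a ratio of 2.08 (1.90 to 2.27). The intervals of the 2 groups did not overlap for either chain. There were 2.98 UMIs of Col1a1 for each of Col1a2 in muscle-rich spots (2.72 to 3.26) and 2.78 in other spots (2.64 to 2.92), intervals that overlapped.

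The minor fibrillar chains had the same direction. Col3a1, the collagen of reticular fibres, was at 279 CPM (249 to 313) in muscle-rich and 143 (135 to 152) in other spots, a ratio of 1.95 (1.71 to 2.22). Col5a1 and Col5a2, whose chains limit the width of type I fibrils, had ratios of 1.93 (1.52 to 2.43) and 1.74 (1.34 to 2.23). Col5a1 was at 86.3 and 44.8 CPM, Col5a2 at 74.3 and 42.7. Of the 3 fibrillar genes with least RNA, Col27a1 (193 UMIs) had a ratio of 1.52 (1.01 to 2.21), Col24a1 (125 UMIs) of 1.68 (1.03 to 2.65) and Col5a3 (124 UMIs) of 2.07 (1.31 to 3.18). All 8 fibrillar intervals thus lay above 1.

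Basement membrane chains differed less. Col4a1, the main chain of the vascular basement membrane together with Col4a2, was at 471 CPM (431 to 514) in muscle-rich and 312 (300 to 325) in other spots, a ratio of 1.51 (1.37 to 1.66). Col4a2 was at 143 (121 to 167) and 115 (107 to 123), a ratio of 1.25 (1.04 to 1.48). The 2 genes start 21 bases apart on opposite strands, yet the UMIs of Col4a1 for each of Col4a2 were 3.29 (2.74 to 3.97) in muscle-rich and 2.72 (2.52 to 2.94) in other spots, with intervals that overlapped.

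Col18a1, the source of endostatin, was at 48.3 and 39.0 CPM, a ratio of 1.24 whose interval (0.90 to 1.67) held 1. Col15a1 (178 UMIs) was at 29.7 and 19.1, a ratio of 1.55 (1.02 to 2.29). The X-linked pair Col4a5 and Col4a6 did not separate the groups, with ratios of 1.01 (0.59 to 1.64) and 1.03 (0.54 to 1.82). Col7a1, the anchoring fibril collagen of skin, Col4a4 and Col4a3 had 88, 62 and 20 UMIs, ratios of 1.70, 1.05 and 1.77, and intervals that all held 1.

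Of the cartilage genes, Col11a1 stood out in amount. It was at 360 CPM (325 to 398) in muscle-rich and 210 (200 to 221) in other spots, a ratio of 1.71 (1.53 to 1.92). Col2a1, the defining collagen of cartilage, had 251 UMIs and was at 39.0 (28.1 to 52.7) and 27.4 (23.8 to 31.4), a ratio of 1.42 (0.997 to 1.99). Per kilobase, Col11a1 had 260 UMIs and Col2a1 had 49.2. Type XI chains also occur in fibrils outside cartilage.

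The type IX chains Col9a2 and Col9a3, which coat type II fibrils, were at 37.1 and 33.4 CPM in muscle-rich spots and at 27.0 and 23.1 in other spots. Their ratios were 1.38 (0.96 to 1.94) and 1.45 (0.98 to 2.08). Col11a2 had a ratio of 1.52 (0.98 to 2.29), and Col9a1 (36 UMIs) of 1.14 (0.35 to 2.97). Of the 6 cartilage genes with at least 20 UMIs, Col11a1 alone had an interval that excluded 1.

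Ratios of the other collagens ran from 2.66 down to below 1. The 3 main chains of type VI collagen, which forms beaded filaments around muscle fibres and other cells, were Col6a1, Col6a2 and Col6a3. Col6a3 was at 120 CPM (100 to 142) in muscle-rich and 50.3 (45.4 to 55.6) in other spots, a ratio of 2.38 (1.94 to 2.91). Col6a1 was at 66.8 (52.3 to 84.2) and 25.2 (21.7 to 29.0), a ratio of 2.66 (1.998 to 3.502), the highest of all collagen genes tested. Col6a2 was at 99.3 (81.4 to 120) and 57.1 (51.9 to 62.7), a ratio of 1.74 (1.39 to 2.15).

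Col25a1, Col26a1 and Col23a1 had much RNA and smaller ratios. Col25a1, a transmembrane collagen needed for motor innervation of muscle, was at 121 (101 to 143) and 110 (102 to 117) CPM, a ratio of 1.10 (0.91 to 1.33). Col26a1 was at 65.9 (51.5 to 83.1) and 60.4 (55.0 to 66.2), a ratio of 1.09 (0.84 to 1.404). Col23a1, also transmembrane, was at 81.7 and 63.7, a ratio of 1.28 (1.01 to 1.61). Col25a1 and Col26a1 thus had no detectable difference in RNA between these 2 spot groups at this depth.

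Col12a1, a fibril-associated collagen of tendon and fascia, was at 70.6 (55.6 to 88.3) and 36.3 (32.1 to 40.8), a ratio of 1.94 (1.49 to 2.51). At least 2-fold higher were also Col8a1, a network collagen of vessels and cornea (2.34, 1.76 to 3.08), Col14a1 (2.65, 1.85 to 3.75), Col22a1 (2.001, 1.33 to 2.93), Col13a1 (2.54, 1.52 to 4.10) and Col17a1 (2.36, 0.85 to 5.77). Col22a1 is known from myotendinous junctions and Col13a1 from neuromuscular junctions. With only 28 UMIs, the interval of Col17a1, a collagen of epithelial hemidesmosomes, held 1. Below 1 were Col19a1 (0.82, 0.42 to 1.46) and Col6a5, with 2 of its 27 UMIs in muscle-rich spots (0.57, 0.07 to 2.27). At most 0.5-fold were Col28a1, with 2 of its 39 UMIs in muscle-rich spots (0.38, 0.04 to 1.49), and Col6a4, with 0 of its 25 UMIs there. The 95% interval of Col6a4 ran from 0 to 3.42 CPM in muscle-rich and from 2.12 to 4.83 in other spots, and that of its ratio from 0 to 1.13, so a difference was not detectable at this depth.

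**Figure D1:**
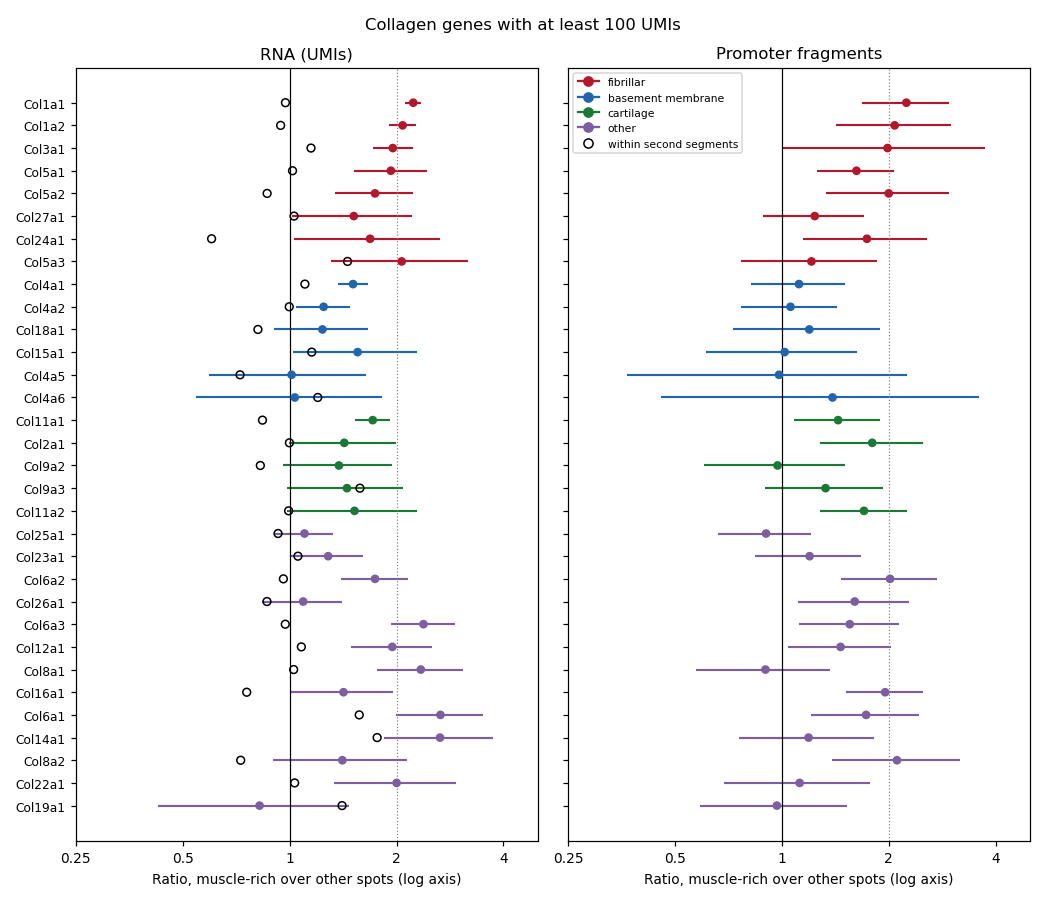
Ratio of muscle-rich over other spots (log axis) for the 32 collagen genes with at least 100 UMIs, in RNA (left) and promoter fragments (right). Filled points are pooled ratios, with lines for the 95% interval of counting error, and open circles on the left are ratios taken within second barcode segments, most of which sit near 1.

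Accessibility of collagen promoters was read as fragments within 1 kb of the start site, per 1000000 promoter fragments of all genes, here called promoter CPM. Fibrillar promoters were at 344 (310 to 381) in muscle-rich and 202 (190 to 215) in other spots, a ratio of 1.70 (1.51 to 1.92). Cartilage promoters were at 240 and 166, a ratio of 1.45 (1.25 to 1.66), and other collagen promoters at 621 and 456, a ratio of 1.36 (1.25 to 1.48). Basement membrane promoters were at 142 (121 to 167) and 135 (125 to 146), a ratio of 1.05 (0.88 to 1.25). Over all spots, the fibrillar type was highest and the basement membrane type lowest, as in RNA. Within second segments this order was not kept, with basement membrane highest in RNA (1.04) and cartilage highest in promoter fragments (1.18). The intervals of the cartilage and other types overlapped in both readouts, and these 2 types changed places in RNA when the split used Acta1 or Ttn alone (1.48 and 1.51, 1.44 and 1.45). They also did so in promoter fragments with Acta1 alone (1.23 and 1.37), the 10 other muscle genes (1.39 and 1.44) and the top 25% of spots (1.327 and 1.332).

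Of the 42 collagen promoters with at least 20 fragments, 4 were at least 2-fold higher, against 2.06% of 28555 promoters. They were Col1a1 (2.24, 1.68 to 2.96), Col1a2 (2.08, 1.42 to 2.99), Col6a2 (2.02, 1.47 to 2.74) and Col8a2 (2.11, 1.38 to 3.16). No collagen promoter was at least 2-fold lower, against 6.59% of all promoters. The interval excluded 1 on the upper side for 16 of the 42, against 2368 of the 28555. In promoter CPM, the Col1a1 promoter was at 70.3 in muscle-rich and 31.4 in other spots, and that of Col1a2 at 40.2 and 19.3. The Col3a1 promoter had 50 fragments in all and a ratio of 1.98 (1.01 to 3.73).

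RNA and promoter ratios were not of one size in every gene. Col8a1, 2.34 in RNA, was 0.90 (0.57 to 1.36) at its promoter, and Col14a1, 2.65 in RNA, was 1.19 (0.76 to 1.81). Conversely, Col26a1, 1.09 in RNA, was 1.60 (1.11 to 2.28) at its promoter, and Col16a1 was 1.42 (1.01 to 1.96) and 1.95 (1.51 to 2.503). For both of these genes the RNA and promoter intervals overlapped, so counting error does not separate the 2 readouts. The promoters of Col2a1 and Col11a2 were at 1.80 (1.28 to 2.49) and 1.70 (1.28 to 2.25). The promoter counts of Col4a1 and Col4a2 (288 and 285 fragments) share nearly all fragments, since both start sites lie in the window printed above, and their ratios were 1.12 (0.82 to 1.501) and 1.06 (0.77 to 1.43).

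Peaks called by the authors gave a finer view of the same fragments. Peak ratios are over all spots only, and none is given within second segments. Within 10000 bases of 43 of the 44 genes lay 305 peaks, and 23 of the 172 with at least 100 cut sites were at least 2-fold higher in muscle-rich spots, against 5.96% of 48648 peaks. At least 2-fold lower were 11 of the 172, against 10.9%, of which 9 lay in gene bodies, 2 in flanks and 0 at promoters. The lowest were 1 peak each in the gene bodies of Col14a1 and Col23a1, both with 2 of 112 cut sites in muscle-rich spots (0.09, 0.01 to 0.32). By position, a ratio of at least 2 held for 7 of 26 peaks at promoters, 9 of 121 in gene bodies and 7 of 26 in the flanks. Upstream of Col1a1, the 3 flanking peaks had ratios of 2.79 (2.20 to 3.51), 3.85 (2.81 to 5.27) and 2.42 (1.72 to 3.37). The peak over the Col1a1 start site was at 3.09 (2.26 to 4.21), and the remaining 2, at its promoter and in the downstream flank, were at 1.99 (1.52 to 2.58) and 1.68 (1.28 to 2.19). In Col27a1, whose promoter ratio was 1.24 (0.89 to 1.70), 4 of the 11 peaks in the gene body were at 2.04 to 2.56 and the other 7 at 1.10 to 1.82, the peak with most cut sites (463) being at 1.10 (0.87 to 1.396). Over the Col25a1 start site, the peak was at 0.71 (0.53 to 0.93).

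Collagen RNA varied more over second than over first barcode segments. Of the 48 second segments, 44 held at least 20 spots, and fibrillar collagens ranged over these from 633 to 5371 CPM with a median of 1016. Basement membrane collagens ranged from 374 to 910 (median 539), cartilage collagens from 199 to 868 (275) and other collagens from 376 to 1248 (528). Beyond counting error, the coefficient of variation of Col1a1 was 74.3% over second segments and 12.9% over first segments. Over the 32 collagen genes with at least 100 UMIs, the median was 46.8% and 10.6%, while over all 10692 such genes it was 17.0% and 4.85%. It was larger over second segments for 30 of the 32, Col4a6 (0 in both) and Col19a1 (0 and 28.3%) being the exceptions, and for 7874 of the 10692.

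Muscle-rich spots were concentrated in few second segments. There were 6 second segments with at least 20 muscle-rich spots each, a limit chosen after the values were seen, and they held 171 of the 249 muscle-rich spots among 279 spots in all. Fibrillar collagens were at 2243 to 5371 CPM in these 6, and at 633 to 3094 in the other 38, with a median of 1001 there. The ranges overlapped, since CAACCGCT, with 6 muscle-rich spots among 37, reached 3094, and CATACTCC and AGAGAAGG, with 5 and 0 among 25 each, reached 2625 and 2433. The highest level, 5371, was in CGAACGCC, where 20 of 49 spots were muscle-rich, and not in ACCGCCAA, where 37 of 47 were (3655).

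Between the 6 second segments and the rest, ratios were larger than between the spot groups. The rest here is all other second segments, with the 4 of under 20 spots included. They were 2.75 (2.65 to 2.85) for fibrillar, 2.03 (1.87 to 2.19) for cartilage, 1.84 (1.73 to 1.96) for other and 1.51 (1.41 to 1.61) for basement membrane collagens. By gene, 17 of 43 collagens were at least 2-fold higher in the 6, against 7.57% of all 15739 genes. Col6a3 was at 3.24 (2.70 to 3.88) and Col1a1 at 2.94 (2.81 to 3.08). Col7a1 was at 3.16 (2.003 to 4.94), but 18 of its 35 UMIs in the 6 came from GGCTGAGC, and without that second segment, a setting added after the values were seen, it was at 1.89 (1.03 to 3.32). Promoter fragments were at least 2-fold higher for 8 of 42 collagens, against 2.81% of all promoters, with Col1a1 at 2.62 and Col1a2 at 2.73. Col25a1 was at 1.30 (1.11 to 1.52) in RNA and 0.75 (0.56 to 0.98) in promoter fragments. At most 0.5-fold were Col28a1 and Col6a4, 2 of 43, against 3.6% of all genes. For no collagen gene were all 6 levels above all 38 others, which was so for 0.311% of all genes.

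**Figure D2:**
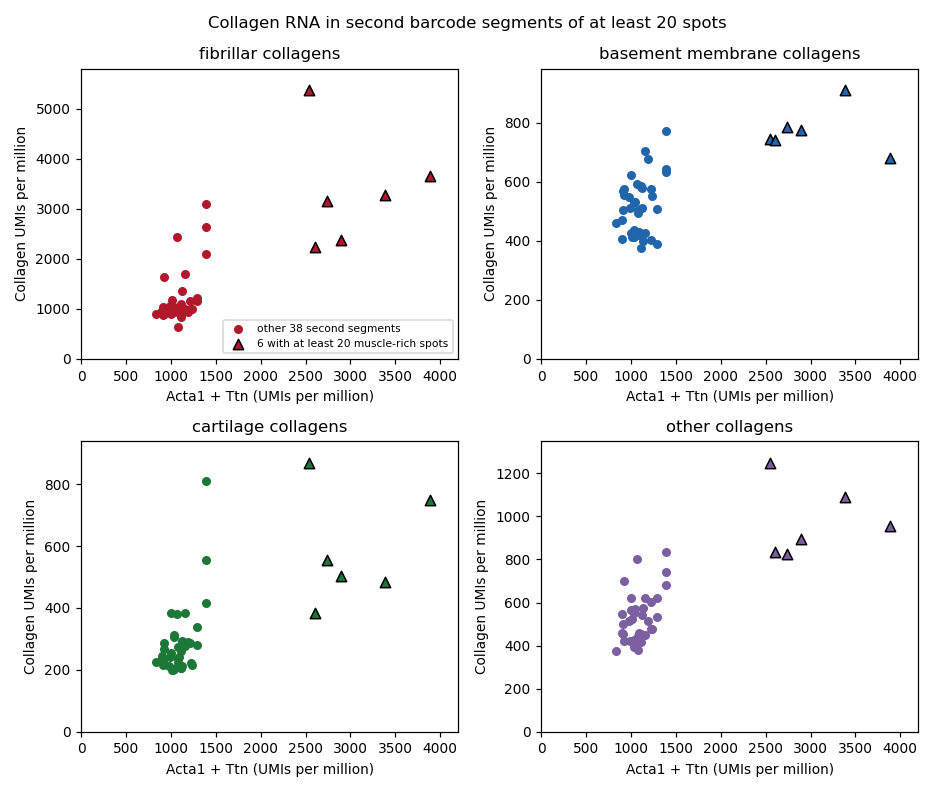
Collagen RNA of each type against Acta1 and Ttn RNA, both in CPM, for the 44 second segments with at least 20 spots. Triangles are the 6 second segments with at least 20 muscle-rich spots, and 4 of the other 38 reach fibrillar levels of 2102 to 3094 with Acta1 and Ttn at 1068 to 1395.

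Across the 44 second segments, collagen levels went with those of Col1a1 to differing degrees. As descriptions over points that share 1 library, Pearson's r with Col1a1 was 0.97 for Col1a2, 0.93 for Col11a1, 0.85 for Col3a1, 0.81 for Col6a3, 0.81 for Col5a1 and 0.69 for Col4a1. It was 0.54 for Col25a1, 0.35 for Col4a2 and -0.03 for Col4a5. Spearman's rho was lower, at 0.67 for Col1a2, 0.56 for Col11a1 and 0.63 for Col3a1. Stmn2, a gene of growing neurons, had an r of -0.78 with Col1a1. Between RNA and promoter fragments, r was 0.71 for Col1a1 (rho 0.25, 236 fragments in all) and 0.11 for Col2a1 (rho 0.23).

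**Figure D3:**
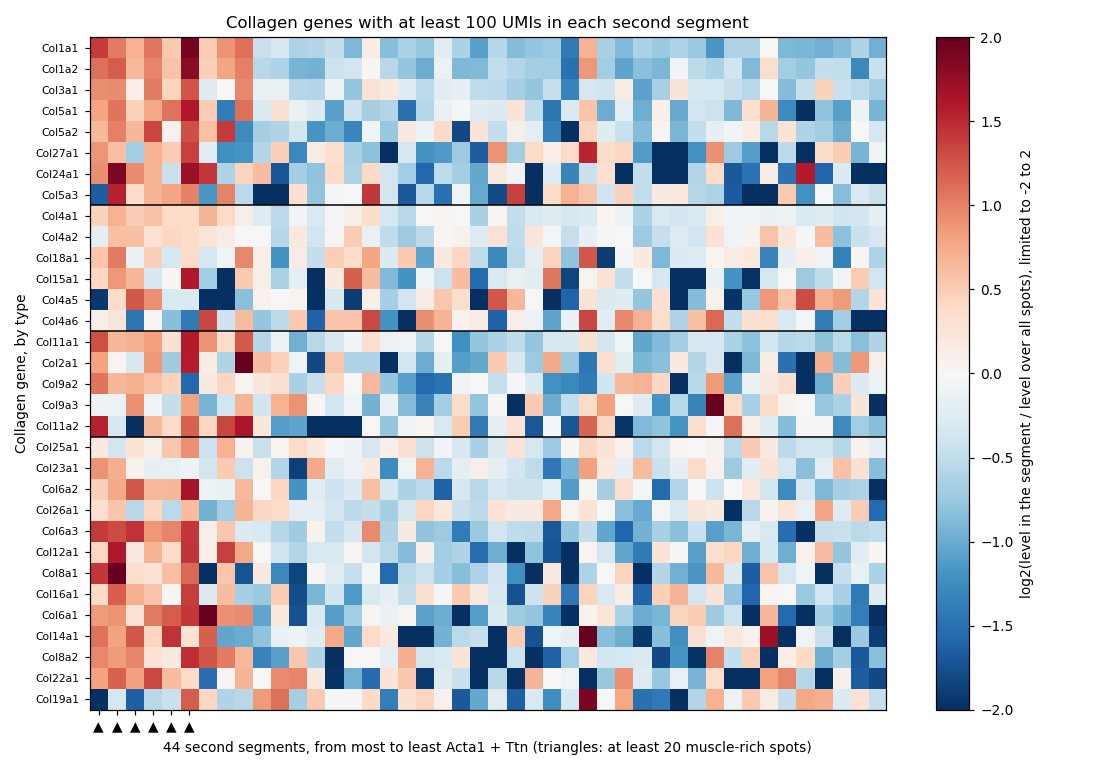
Level of each collagen gene with at least 100 UMIs (rows, by type) in the 44 second segments (columns, from most to least Acta1 and Ttn), as log2 of the level over that in all spots, limited to 2 in either direction. Triangles mark the 6 second segments with at least 20 muscle-rich spots. Genes of each type, among them Col1a1, Col1a2, Col4a1, Col11a1, Col6a3 and Col8a1, lie above their level over all spots in each of these 6. Col4a6 and Col19a1 lie on both sides.

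When muscle-rich spots were set against other spots of the same second segment, the higher collagen RNA was lost from the pooled ratio. The Mantel-Haenszel ratio, which pools the comparisons made inside each second segment, was 0.98 for fibrillar, 1.04 for basement membrane, 0.89 for cartilage and 1.02 for other collagens. No interval was computed for these pooled ratios, by type or by gene. Single second segments differed in direction, as given below. For Col1a1 it was 0.97, for Col1a2 0.94, for Col3a1 1.15, for Col11a1 0.84, for Col4a1 1.10 and for Col6a3 0.97. Only 1 of the 43 collagens, Col17a1 with 28 UMIs, stayed at least 2-fold higher, against 3.69% of all genes. Others of the 43 above 1.4 were Col4a3 with 20 UMIs (1.96), Col14a1 (1.76), Col9a3 (1.58), Col6a1 (1.57), Col5a3 (1.46) and Col19a1 (1.404), of which Col6a1 and Col14a1 had been at 2.66 and 2.65 over all spots. At least 2-fold lower were 3 of the 43, against 6.33% of all genes: Col6a4 (0), Col6a5 (0.27) and Col20a1 (0.48), each with under 30 UMIs. Col24a1, with 125 UMIs, went from 1.68 over all spots to 0.60, Col8a2 from 1.41 to 0.73, and Col4a5 from 1.01 to 0.72.

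Muscle genes that had no part in the split kept a smaller ratio above 1. The 10 other skeletal muscle genes on the list, led by Myh8 and Mylpf, had a pooled ratio of 3.04 and a ratio of 1.58 within second segments. Promoter ratios within second segments were 1.11 for fibrillar, 1.18 for cartilage, 1.04 for other and 0.876 for basement membrane collagens.

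The next values pool spots over the 6 second segments, so they do not compare spots within the same second segment. Muscle-rich spots of the 6 held 3110 CPM of fibrillar collagen (2993 to 3230), and the other 108 spots held 3491 (3349 to 3639). CGAACGCC held 29 of these 108 spots and gave 833 of their 2248 fibrillar UMIs, at 6041 CPM. It held 20 of the 171 muscle-rich spots. The pooled levels thus also carry differences among second segments, and ratios within single second segments are given below. Elsewhere, 78 muscle-rich spots held 2032 (1846 to 2231) and 1635 other spots 1165 (1140 to 1191). Col1a1 was at 1905 and 2181 CPM in muscle-rich and other spots of the 6, and at 1265 and 670 elsewhere. Over the same 4 classes Acta1 was at 2246, 876, 1385 and 513. Acta1 is one of the 2 genes that define the muscle-rich spots, so its order between the spot groups was set by the split.

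**Figure D4:**
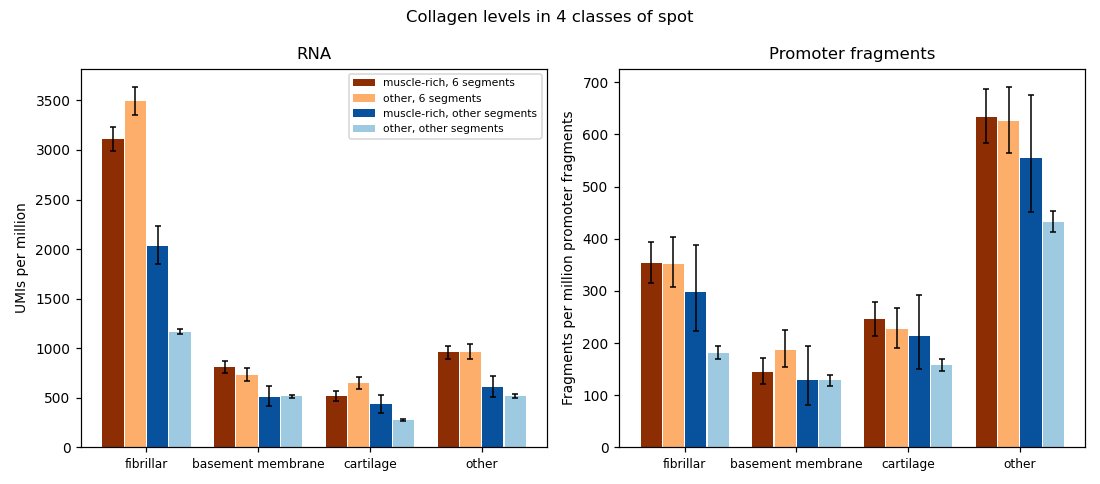
Collagen RNA (left) and promoter fragments (right), each in CPM, by type in 4 classes of spot: muscle-rich or other, inside the 6 second segments with at least 20 muscle-rich spots or elsewhere. Error bars are 95% Poisson intervals. Pooled over the 6 second segments, fibrillar promoter fragments were at 353 in muscle-rich and 352 in other spots.

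Summed basement membrane and other collagens, pooled over the 6 second segments, differed little between muscle-rich and other spots (809 and 733, and 960 and 966 CPM). Col4a1 alone was at 515 (468 to 565) and 416 (368 to 469) CPM, with intervals that barely overlapped. Summed cartilage collagens, pooled in the same way, were lower in the muscle-rich spots, at 519 (472 to 570) against 648 (587 to 713). Most of this sum was Col11a1, at 377 (337 to 420) against 503 (450 to 561). Over all second segments, the ratio within them was 0.84 for Col11a1, 0.83 for Col9a2 and 0.80 for Col9a1. It was 0.998 for Col2a1, 0.99 for Col11a2 and 1.58 for Col9a3, so the genes of the type did not move alike. Within single second segments, fibrillar collagens were lower in muscle-rich spots of ACCGCCAA, at 3096 against 5528 (ratio 0.56, 0.48 to 0.65), and of CGAACGCC, at 4105 against 6041 (0.68, 0.59 to 0.78). In CCAGTTCC they were higher, at 2655 against 2070 (1.28, 1.07 to 1.54), and in ACTTAACC, CCGATTCC and GGCTGAGC the intervals held 1. Cartilage collagens were at 0.55 (0.39 to 0.77) in ACCGCCAA and 0.60 (0.42 to 0.85) in CGAACGCC.

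**Figure D5:**
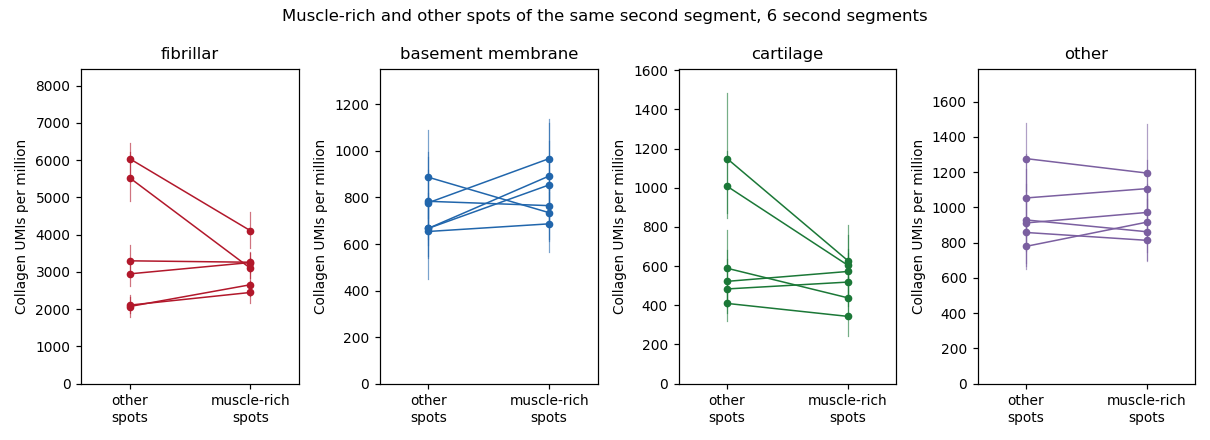
Collagen CPM in other and muscle-rich spots of the same second segment, for the 6 second segments with at least 20 muscle-rich spots, by type. Each line joins the spots of 1 second segment and vertical bars are 95% Poisson intervals. The intervals of the fibrillar and cartilage ratios lay below 1 in 2 of the 6, ACCGCCAA (10 other spots) and CGAACGCC (29 other spots). The fibrillar interval lay above 1 in CCAGTTCC (21 other spots). These intervals cover counting error only.

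Genes that make, bind and remodel collagen were read from lists by role, beside a median ratio of 0.98 over all genes, of which 4.81% were at least 2-fold higher and 4.42% at least 2-fold lower. Of the 13 fibril-associated matrix genes, 3 were at least 2-fold higher in muscle-rich spots, Postn, Ogn and Lum, and the list had a median ratio of 1.68. Most UMIs in it were from Sparc, a collagen-binding glycoprotein, at 941 and 561 CPM (1.68, 1.56 to 1.80), and Fbn2, a fibrillin, at 333 and 192 (1.73, 1.54 to 1.95). The summed list had a ratio of 1.68 over all spots and 1.05 within second segments. For the lists by role that follow, values are over all spots only, and none is given within second segments.

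Procollagen processing and crosslinking genes had a median of 1.15 over 10 tested, with 2 at least 2-fold higher, Pcolce, an enhancer of procollagen cleavage (2.17, 1.75 to 2.69), and Lox, a crosslinking oxidase (2.23, 1.42 to 3.42). Bmp1, the main procollagen C-proteinase, was at 0.96 (0.76 to 1.20). None of the 18 genes of chain folding and modification was past 2-fold in RNA, and their median was 1.16. Serpinh1, the collagen chaperone, was at 1.28 (1.05 to 1.56) in RNA and 2.20 (1.70 to 2.82) in promoter fragments. Ppib, a prolyl isomerase of most cells, was at 0.996 (0.86 to 1.15).

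Collagen receptors had a median of 1.30 over 10 tested, with Ddr2 (2.43, 1.72 to 3.37) and Itga2 (2.26, 1.14 to 4.19) at least 2-fold higher. Itgb1, the shared integrin subunit, was at 1.22 (1.01 to 1.46), and Adgrg1, the receptor of type III collagen on neural progenitors, was lower at 0.55 (0.40 to 0.75). Of 7 degradation genes and inhibitors tested, Mmp2 (2.28, 1.65 to 3.11) and Ctsk (2.48, 0.89 to 6.11) were past 2-fold, while Timp3 and Timp2 were near 1, at 138 and 117 CPM in muscle-rich and 128 and 116 in other spots. Partners of the basement membrane had a median of 1.52 over 11 genes with 0 past 2-fold, with Hspg2, perlecan, at 1.96 (1.65 to 2.32) and Agrn, agrin, at 0.88 (0.72 to 1.06). Of 9 transcription factors tested, Foxc1 alone was past 2-fold (2.78, 1.25 to 5.77), and Sox5 and Sox6, which also act in neurons, were at 0.92 and 1.02.

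Markers of muscle, bone and other cell types moved with the same split, and their part in the collagen values was not tested. Summed over 8 genes each, osteoblast markers were at 133 CPM in muscle-rich and 63.0 in other spots, fibroblast and meningeal markers at 175 and 102, epithelial markers at 270 and 134, and neuron markers at 3043 and 4218. Epithelial markers were uneven, at 143 to 1034 CPM over the 6 second segments and 54.8 to 182 over the other 38. No ratio within second segments is given for them. Ibsp, a bone matrix protein, and Alpl, bone alkaline phosphatase, had ratios of 2.72 and 2.51, with lower bounds of 2.004 and 1.83. Osteoblast markers ranged from 11.6 to 365 CPM over the 44 second segments, and within second segments their ratio was 0.78 (2.11 over all spots). Fibroblast and meningeal markers were at 1.72 over all spots and 1.29 within second segments, and neuron markers at 0.72 and 0.93. Endothelial markers (306 and 285), mural markers (271 and 203), Schwann cell markers (31.6 and 22.4), radial glia markers (898 and 805) and erythroid markers (7617 and 6620) were also read in both groups. The radial glia sum had a ratio of 1.12 (1.04 to 1.19), whereas the median ratio over its 8 genes was 0.93. Chondrocyte markers, with 213 UMIs in all and Matn1 at 0, were at 26 and 24.2 CPM, a ratio of 1.07 (0.69 to 1.60), against 1.62 for the cartilage collagens, most of whose UMIs were from Col11a1. In promoter fragments the chondrocyte markers were at 1.52 (1.30 to 1.78) and the cartilage collagens at 1.45.

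By gene, beside 4.81% of all genes at least 2-fold higher and 4.42% at least 2-fold lower, all 10 muscle genes were past 2-fold, with Myh8 at 3.26 and Mylpf at 2.94. So were 2 of 4 osteoblast genes with at least 20 UMIs, 3 of 7 fibroblast and meningeal genes, 2 of 8 epithelial genes and 2 of 4 Schwann cell genes. Of the chondrocyte genes 0 of 5 were higher and 2 lower, and none of the endothelial, mural, neuron, radial glia and erythroid genes was past 2-fold. Brackets below name the cell type a gene was listed for, and a listed gene can also be expressed in other cell types. For the most abundant genes, ratios were 1.36 for Pdgfra and 1.29 for Dcn (fibroblasts), 1.11 for Flt1 and 0.87 for Cldn5 (endothelium), 1.01 for Rgs5 and 1.56 for Cspg4 (mural cells), and 2.39 for Krt18 and 1.91 for Krt8 (epithelium). They were 0.92 for Sox10 (Schwann cells and other glia), 0.71 for Map2 and 0.66 for Gap43 (neurons), 0.68 for Fabp7 and 1.9 for Vim (radial glia), 1.13 for Hba-a1 and 1.15 for Hba-a2 (red cells), and 1.54 for Acan and 0.23 for Snorc (cartilage). Muscle, bone and connective tissue markers were thus read in tissue labelled as brain.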

How the data were processed

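SPARC-seq of E18.5 brain tissue gave 1 RNA and 1 accessibility library. The authors deposited raw counts, namely a filtered matrix of UMIs (32285 genes) and cut sites (91223 peaks) and a fragment list, made with cellranger-arc 2.0.1 on mm10 per the file headers. The submitters' processing notes also name Seurat 4.0. How barcodes were chosen for the matrix is not given in the sources used here. Intervals and floors reflect depth alone, 8711132 UMIs and 52942843 fragments.

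Spots were filtered on genes detected (500 to 6000) and mitochondrial share (up to 20%). Muscle-rich spots were the 249 highest of 1992 by Acta1 and Ttn UMIs over all UMIs. Promoter fragments were those touching the window of 1000 bases either way from the GENCODE M21 start site (32235 genes), and overlapping windows counted once in type totals. Counts were compared as rates, with exact Poisson intervals for a rate and conditional Clopper-Pearson intervals for a ratio, at 95%. Genes needed 20 counts, and at least 2-fold was used as the call. With 1 library of each kind no test was made. Doublets were not called, since a spot can hold several cells. Ratios pooled within second barcode segments used the Mantel-Haenszel estimator, without intervals. Glycine triplets were counted in open reading frames of GENCODE transcripts, in place of the planned RefSeq proteins.

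The collagen genes, their types and the other lists were chosen with earlier results of these data known. Genes were named as the 6 of each type with most UMIs, the rest by count, range or a ratio past 2-fold, and the 2 of each other list with most UMIs, of which 1 gene is not reported here. Other genes, and the limit of 20 muscle-rich spots for the 6 second segments, were picked with values in view. The steps for ratios, Mantel-Haenszel ratios and window counts were first tested on simulated data. The counts of triplets and motifs and the variation beyond counting error were not covered by those tests. Python 3.11.15 with numpy 2.4.6, scipy 1.17.1, pandas 2.3.3 and matplotlib 3.10.9 was used. Alternatives covered spot filters, the split, strata, windows, scaling, count minimums and folds.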

Additional observations from a re-analysis of the deposited data

Results flagged for a closer look

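Collagen promoter fragments were also present in the 507 barcodes that are in the fragment data but not in the count matrix, and that no comparison above used. Fibrillar collagens had 123 fragments there, or 241 promoter CPM (per 1000000 promoter fragments) against 227 in the kept spots, a ratio of 1.06 (0.88 to 1.28). Basement membrane collagens had 73 fragments (ratio 1.05, 0.81 to 1.33), cartilage collagens 136 (1.49, 1.24 to 1.78) and other collagens 290 (1.17, 1.04 to 1.32). These barcodes have no RNA in the files used, so no spot group could be given to them. The cause was not tested.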

How the results depend on the processing

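The ratios of the 4 types stayed above 1 under each alternative that gives one (10 for RNA, 13 for promoters), except within second barcode segments. There, RNA ratios were 0.979 for fibrillar and 0.893 for cartilage collagens, both below 1, and 1.04 for basement membrane and 1.02 for other collagens. Promoter ratios were 1.11 for fibrillar, 0.876 for basement membrane, 1.18 for cartilage and 1.04 for other collagens, and 1 gene was at least 2-fold higher in RNA and 1 in promoter fragments (3.69% of all genes, 5.08% of all promoters). With the split by the 10 other muscle genes, RNA ratios were 2.53 for fibrillar, 1.89 for cartilage and 1.82 for other collagens, with 19 genes past 2-fold in RNA and 7 in promoter fragments (6.38% and 2.36% of all). With the split by Ttn alone they were 1.83, 1.44 and 1.45, the promoter ratio of other collagens was 1.24, and 3 genes were past 2-fold in RNA and 2 in promoter fragments (3.98% and 1.88% of all). With Acta1 alone the fibrillar RNA ratio was 1.95, the cartilage promoter ratio 1.23, and the counts 6 and 2 (4.3% and 1.75% of all). With the top 25% as muscle-rich, RNA ratios were 1.94 for fibrillar, 1.29 for basement membrane and 1.45 for other collagens, with 5 genes past 2-fold (3.83% of all). A 500 bp window gave 1.49 for other collagen promoters and 7 genes past 2-fold (3.68% of all promoters), and scaling to all fragments gave 7 (2.71%). At 1.5-fold, 23 genes were higher in RNA and 14 in promoter fragments (12.6% and 9.97% of all), and at 3-fold 0 and 0 (0.947% and 0.084%). Other settings, among them leaving out segments with under 20 spots, which was added after the values were seen, stayed within the main interval or within 1.5 times the count. Causes were not tested. No paired analysis was possible because each assay had 1 library. Depth limits the genes with few counts: Col10a1 had 5 UMIs, and the intervals of 21 of the 43 genes with at least 20 UMIs held 1 in RNA.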

Other observations

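The 4 second segments with under 20 spots were left out of the ranges above. GGTATGCT, with 12 spots of which 2 were muscle-rich, had 11342 CPM of fibrillar collagen and Col1a1 at 7752, both above every second segment with at least 20 spots, and Ibsp at 436. GCTAACTT, with 17 spots of which 3 were muscle-rich, had 5022 CPM of fibrillar collagen and Ibsp at 0. ATAAGGAG and GAAGATCG held 2 and 4 spots.

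Outside the 6 second segments with many muscle-rich spots, CAACCGCT and GACCTTGA combined fibrillar collagen of 3094 and 2102 CPM with the growth hormone gene Gh at 1298 and 1134, against 5 to 132 in the other second segments with at least 20 spots. Col2a1 was highest in CAACCGCT, at 137 CPM, and Col6a1 in GACCTTGA, at 134. CCGAGAAT, GCCGCAAC and CTGATGGT, where Ttr, the transthyretin gene of the choroid plexus, was at 7003, 9686 and 8501, had 962, 885 and 890 CPM of fibrillar collagen, near the median of 1016. Col9a3 had its highest level, 107, in CTGATGGT.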
